A study of Drosophila melanogaster with 72 samples.

Results

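The replication-dependent histone genes of Drosophila melanogaster were followed across embryos and larvae with altered Integrator function. Every row of the deposited gene tables named as a copy of His1, His2A, His2B, His3 or His4 was taken, which gave 111 of 16680 rows, namely 23 of His1, 20 of His2A, 23 of His2B, 23 of His3 and 22 of His4. The choice used names alone and no measured value, although earlier results of these data were known when it was made. Copies of a type are near-identical and share reads, so their counts were summed to 1 value per type.

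Replication-dependent histone genes supply the core histones, around which DNA is wrapped, and the linker histone H1, which binds between nucleosomes. In flies they lie in a tandem array of repeated units, and their mRNAs end in a stem-loop rather than a poly(A) tail, cut by a complex that includes the U7 snRNA particle and the stem-loop binding protein. The mother loads the egg with histone mRNA for the rapid early nuclear divisions, and the embryo then makes its own. Integrator is a separate complex that cuts nascent RNA at snRNA genes and many protein-coding genes; IntS11 is its endonuclease and IntS9 the partner subunit of IntS11.

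Total RNA depleted of ribosomal RNA was sequenced in 72 libraries, 36 groups of 2, in 6 experiments that each had their own controls. The embryo windows ran from 0 to 0.5 h, from 1 to 1.5 h and from 2.5 to 3 h, and larvae were taken 24, 48 or 72 h after egg laying. Embryos with mislocalized IntS11, with mislocalized IntS9 and with an IntS11 knockdown (KD) were each compared with wild type (WT) in all 3 windows. In the later windows only, embryos given alpha-amanitin, an inhibitor of RNA polymerase II, were compared with their controls, and a rescue experiment compared WT, mislocalized IntS11, Flag-tagged IntS11 WT and Flag-tagged IntS11 E203Q. The larval experiment compared WT with a zygotic mutant. The labels do not give the alleles or drivers behind these groups, the background that carried the Flag transgenes, the amanitin dose or the gene mutated in the larvae.

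Counts per library summed to between 2061575 and 26074431, with a median of 14898257; in the knockdown experiment WT libraries held 2061575 to 2590455 and KD libraries 10415095 to 12468983. IntS11 RNA stood at 4.56 to 15.3 CPM (counts relative to the TMM-scaled library size) in KD embryos and 76.4 to 107 CPM in their WT. With either Flag transgene it stood at 1944 to 2482 CPM, against 123 to 186 CPM in WT and mislocalized embryos of that experiment. The summed level of 6 larval markers was 236 to 839 CPM in KD embryos, where none was at 0, and 0 to 8.89 CPM in their WT, where 3 to 6 of the 6 were at 0 in each library. The part of these markers in the histone values of the knockdown was not tested.

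All 111 copy rows matched genes of the dm6 annotation on chromosome 2L between 21416953 and 21541681, a span of 124729 bases. The His1, His2A and His3 copies lie on the plus strand and the His2B and His4 copies on the minus strand. In 65 rows the expected count was 0 in all 72 libraries, in 46 it was above 0 somewhere, and in 14 its mean was above 1. His3 was listed at 0 in all 23 rows and all libraries. His2A summed to 6.92 counts over the series, in 7 libraries, and His4 to 221.89, in 47 libraries. His1 held 21552.1 counts, 37.2% of all histone counts, and His2B 36232.5, or 62.5%.

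An exact 0 in these tables can be a failed estimate. The 111 rows list 919 transcript entries between them, 69 rows listing 10 each, all 23 His3 rows among them. No source used here says how reads matching several copies were assigned. All histone rows together took 7.6e-05% to 0.0169% of the counts of a library. The values below describe reads that the authors' counting placed on His1 and His2B, and on His4 where its few counts allow; levels of His2A and His3 are not reported.

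Within both of these types the counts sat on few rows. His2B:CG33868, at 21537505 to 21538099, held 99.6% of all His2B counts, with a mean of 501 per library. The next His2B rows, a set of 3 that includes His2B:CG17949 and His2B:CG33910, had a mean of 0.532 each. Sets of His1 rows had identical values in every library. The set with the highest mean per row was His1:CG31617 and His1:CG33813, at 21421855 to 21422877 and 21451052 to 21452074. It had a mean of 42.9 counts per row and 28.6% of His1 counts. A set of 6 rows with His1:CG33837 held 50.4%, and 3 rows with His1:CG33855 held 16.3%. These, and His1:CG33801 and His1:CG33834 below, were named after their values were seen. Rows of a set are not independent, and the value of any single copy is uncertain.

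**Figure D1:**
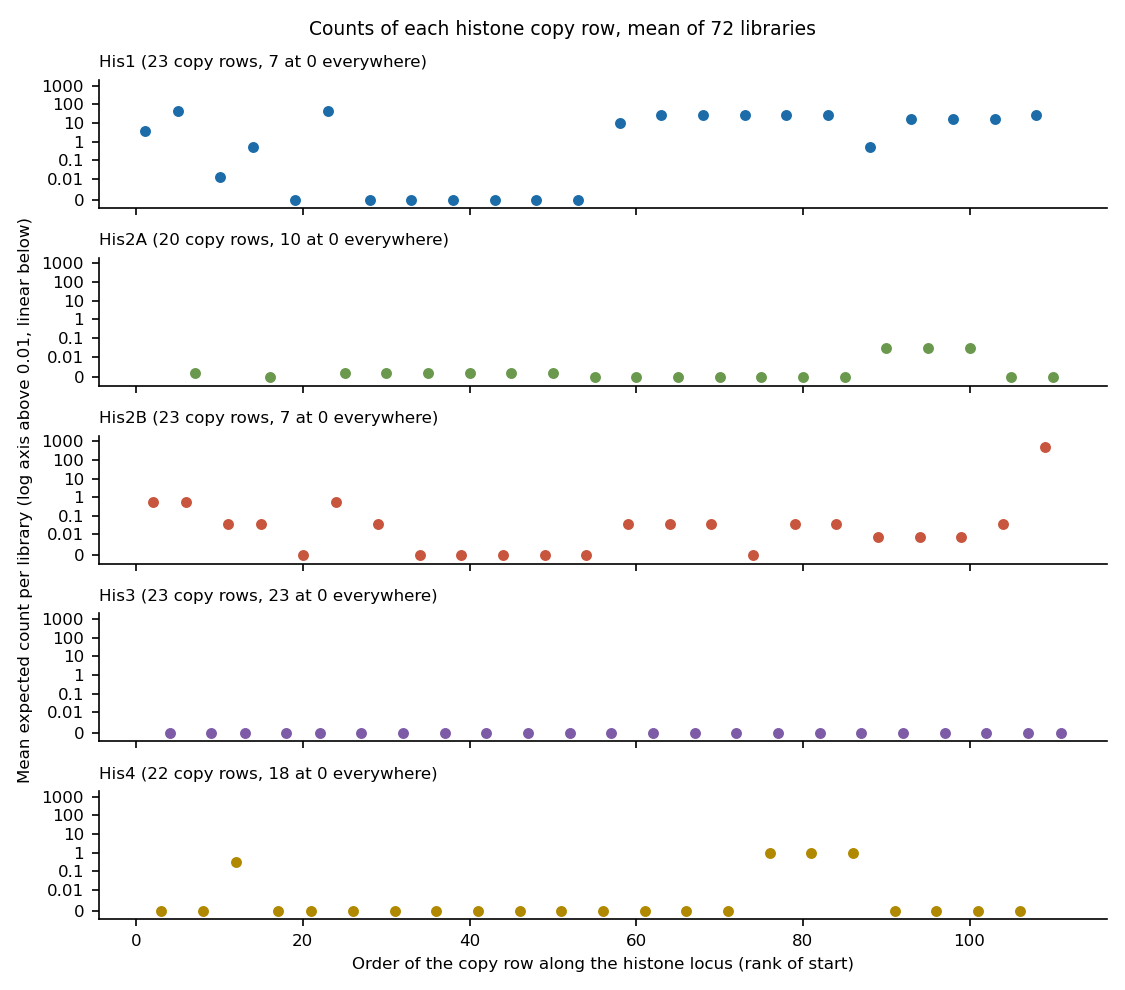
Mean expected count of each copy row over 72 libraries, by histone type, along the order of rows at the locus. Of the 14 rows with a mean above 1, His2B has only His2B:CG33868 and the rest are His1, while every His3 row is at 0.

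On the deposited TPM scale, which corrects for transcript length and library size, His2B was higher than His1 in every control embryo library. This compares the reads that were placed on each type, which need not follow the RNA levels of the types. Over the 26 control libraries the summed His1 level ran from 15.9 to 71.9 TPM with a median of 38.4, and the His2B level from 80.2 to 143 TPM with a median of 107. The ratio of His2B to His1 TPM ran from 1.59 to 5.99, and was 3.88 to 5.99 in the amanitin controls and 1.75 to 2.32 in the knockdown controls. Each altered group is therefore set against its own controls.

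In the TMM-scaled fit both types rose with age in some control groups. Between 1 to 1.5 h and 2.5 to 3 h, His1 rose by log2 changes of 0.57 ± 0.10, 0.525 ± 0.084 and 1.04 ± 0.10 in the IntS11 mislocalization, IntS9 mislocalization and amanitin controls (SE, n = 2 libraries per group). His2B rose by 0.58 ± 0.096, 0.94 ± 0.12 and 1.19 ± 0.11 in the IntS9, amanitin and rescue controls. The other changes did not pass, at 0.00998 ± 0.093 for His1 in the rescue controls, 0.25 ± 0.15 for His2B in the IntS11 mislocalization controls, and 0.11 ± 0.15 and 0.33 ± 0.16 for His1 and His2B in the knockdown controls (edgeR quasi-likelihood test, Benjamini-Hochberg adjusted over all rows, lowest adjusted p = 0.0676). Of all rows, 81.1%, 81.4%, 90.5%, 85% and 73.4% were called in the IntS11, IntS9, amanitin, rescue and knockdown controls. In deposited TPM, mean His1 went from 32.8 to 36.9, 38.7 to 39.3, 17.4 to 23.4, 47.3 to 33.9 and 64.6 to 52.6 in that order. Mean His2B went from 131.5 to 118.1, 90.8 to 96.0, 89.3 to 106.8, 81.5 to 134.2 and 127.3 to 120.1 TPM. The size and in places the direction of these changes thus depended on the scale, and TPM changes with age were not tested. The labels do not say whether the 2 libraries of a group came from separate collections, so p-values measure only the spread between these libraries. In whole embryos, fewer nuclei or cells making a transcript and less of it from each cannot be told apart. Nor can RNA loaded by the mother and RNA made by the embryo.

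His1 and His2B were both lower than WT in each window in embryos with mislocalized IntS11. At 0 to 0.5 h the level of His1, the linker histone, was 40.8 and 37.1 CPM in WT and 3.59 and 3.39 CPM in mislocalized embryos. In the next window, 1 to 1.5 h, it was 50.9 and 45.8 against 1.97 and 2.29 CPM, and at 2.5 to 3 h 74.7 and 68.8 against 5.26 and 5.99 CPM. The groups did not overlap in any window. The log2 changes were -3.47 ± 0.14, -4.51 ± 0.15 and -3.67 ± 0.12, or 11.1, 22.8 and 12.7-fold lower (edgeR, Benjamini-Hochberg, adjusted p at most 3.61e-11). Of all rows, 31.6%, 47.2% and 83.3% were called in the 3 windows.

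His2B, a core histone, was 60.8 and 50.4, 101 and 80.8, and 118 and 98.5 CPM in WT in the 3 windows. In mislocalized embryos it was 19.7 and 13.4, 16.2 and 12.5, and 22.2 and 18.9 CPM. No mislocalized library reached a WT one. The log2 changes were -1.74 ± 0.18, -2.66 ± 0.18 and -2.40 ± 0.17 (edgeR, Benjamini-Hochberg, adjusted p at most 1.94e-06). His4, another core histone, had 7.99 to 13 counts in each WT library. In mislocalized embryos it had 3.99 and 0.99 at 0 to 0.5 h, 0.99 and 0 at 1 to 1.5 h and 0 in both libraries at 2.5 to 3 h, the last at least 10.3-fold lower with 3 counts over the group as the floor. Floors cover counting error only. In the rescue experiment, described below, His4 had 3.99 and 15.99 counts in WT and 1 and 0 in mislocalized embryos at 1 to 1.5 h. At 2.5 to 3 h it had 0.99 in each WT library and 0 in each mislocalized one, too few to compare.

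Stage markers moved with these changes. At 2.5 to 3 h the summed level of 6 maternal germline transcripts was 3227 to 3534 CPM in mislocalized embryos and 392 to 443 CPM in WT, and that of 8 early zygotic genes 799.6 to 820.5 against 6902 to 7207 CPM. By 1 to 1.5 h the early zygotic sums were already 397 to 399 against 2311 to 2367 CPM and the maternal sums 4931 to 4937 against 3825 to 4232 CPM. At 0 to 0.5 h, where His1 was already 11.1-fold lower, the maternal sums were 3933 to 3991 and 4009 to 4361 CPM and the early zygotic sums 327 to 337 and 389 to 404 CPM in mislocalized embryos and WT. A sum over 8 genes of older embryos was 14.3 and 15.0 CPM in WT and 5.31 and 3.98 CPM in mislocalized embryos at 0 to 0.5 h. In the later windows it was 18.5 and 23.5 against 5.33 and 6.05 CPM, and 254 and 277 against 26.6 and 28.5 CPM. The median change of all rows was -0.38 at 2.5 to 3 h. The part of stage in these histone values was not tested.

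The shares of some sets of His1 rows also differed. His1:CG31617 and His1:CG33813 held 28.2% to 31.4% of His1 counts in WT libraries and 12.8% to 19.4% in mislocalized ones. The set with His1:CG33855 held 5.72% to 17.2% in WT and 22.5% to 35.98% in mislocalized libraries, and His1:CG33801 0.698% to 1.34% and 3.23% to 4.93%. None of these ranges, which pool the 3 windows, overlapped. The largest set, with His1:CG33837, did overlap, at 50.2% to 52.3% in WT and 46.7% to 53.1% in mislocalized libraries. So did His1:CG33834, at 0% to 11.3% and 0% to 3.74%. The His1 sum of a mislocalized library was only 31 to 101 counts, so its shares, above all those of His1:CG33801, rest on few counts. As single rows at 1 to 1.5 h, His1:CG31617 fell by 5.38 ± 0.31 and His1:CG33855 fell by 2.53 ± 0.51 on the log2 scale. Of the 14 copy rows tested, 12, 14 and 13 were lower in the 3 windows, where 14.8%, 24.6% and 53.2% of all rows were. Most of these are His1 rows in sets with identical values, which passed the count filter mainly through WT libraries. The counts of rows largely repeat the His1 sum and add no separate support. The histone array of each line was not analysed here, so a difference in copy sequence between lines and a difference in RNA cannot be told apart.

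**Figure D2:**
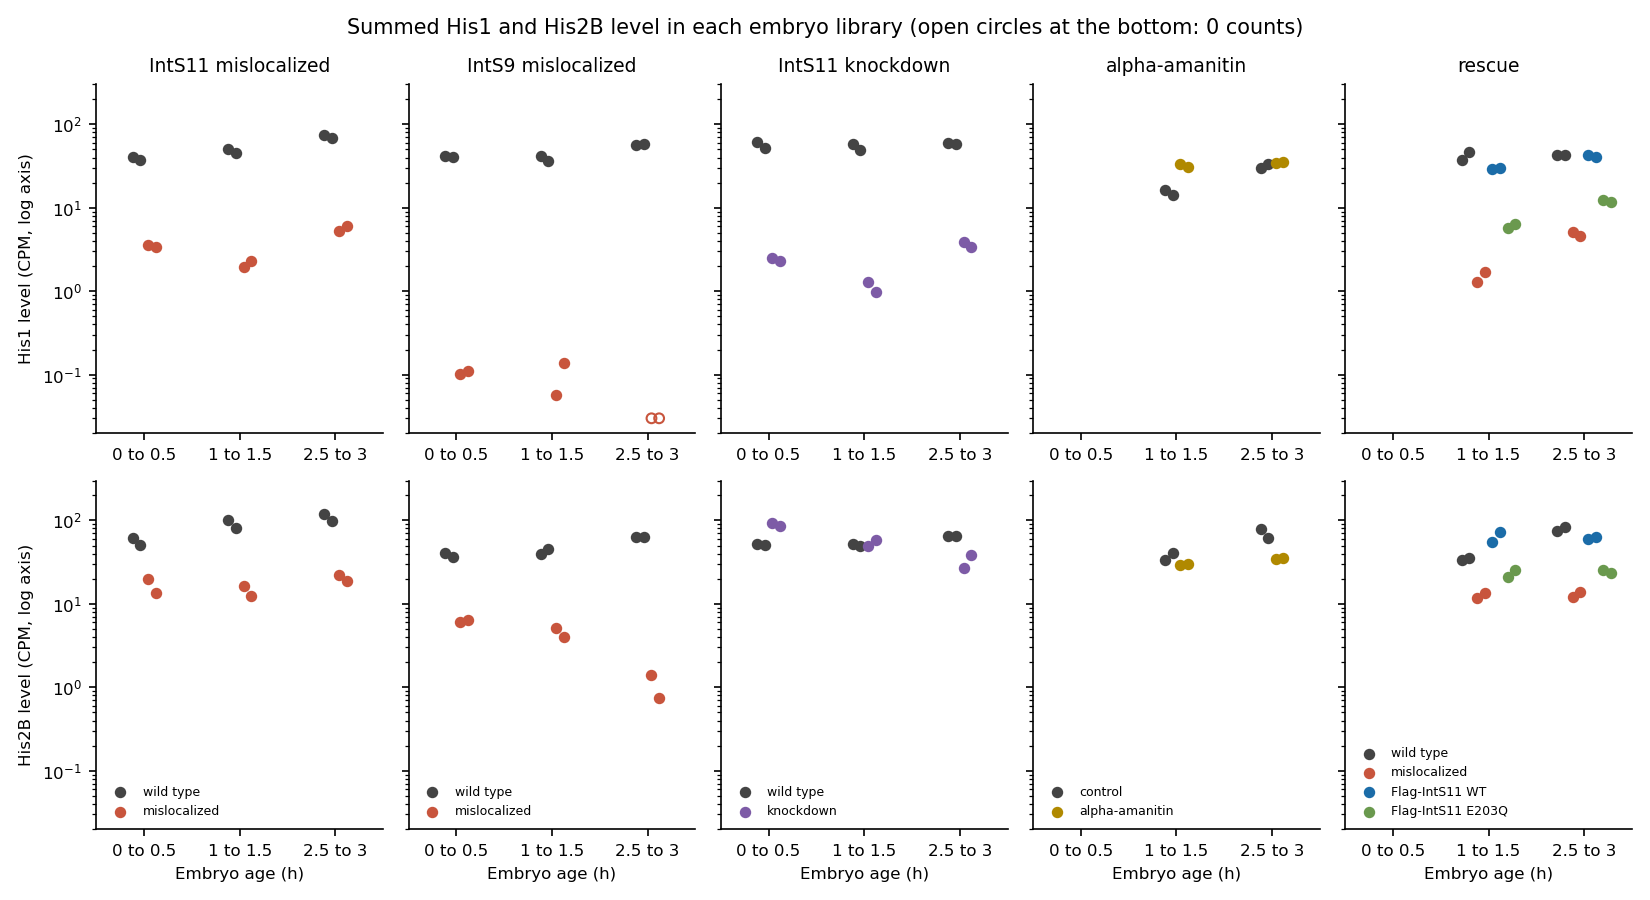
Summed His1 (top) and His2B (bottom) level of each embryo library in CPM on a log axis, by age window, with 1 column per experiment and 1 colour per arm; open circles mark 0 counts. His1 with mislocalized IntS11 is 1.97 to 5.99 CPM against 37.1 to 74.7 CPM in its WT.

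With mislocalized IntS9 almost no His1 counts were found. At 0 to 0.5 h His1 was 41.4 and 41.04 CPM in WT and 0.101 and 0.1100 CPM in mislocalized embryos, the latter from 1.98 and 1.99 counts. For 1 to 1.5 h the levels were 41.9 and 36.8 against 0.058 and 0.137 CPM, the latter from 1 and 3 counts. In the last window WT held 56.02 and 57.4 CPM and both mislocalized libraries had 0 counts. WT and mislocalized libraries were far apart throughout. The log2 changes were -8.52 ± 0.21 and -8.49 ± 0.21 in the earlier windows (edgeR, Benjamini-Hochberg, adjusted p at most 1.74e-17), and the level was at least 575-fold lower in the last. The 575-fold bound takes 3 counts over the group as its floor, which covers counting error only. An exact 0 can also be a failed estimate, so the size of the fall in that window is uncertain. Of all rows, 52.5%, 59.4% and 83.4% were called. At 1 to 1.5 h the change rested on the few counts above: it was -9.24 without mislocalized replicate 2 and -8.08 without replicate 1.

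His2B was 40.9 and 35.9 CPM in WT and 5.99 and 6.49 CPM in these embryos at 0 to 0.5 h. It was 40.02 and 44.96 against 5.07 and 3.99 CPM at 1 to 1.5 h, and 63.3 and 64.02 against 1.41 and 0.738 CPM at 2.5 to 3 h. The groups were apart in each window, and the log2 changes were -2.62 ± 0.12, -3.24 ± 0.13 and -5.91 ± 0.17 (edgeR, Benjamini-Hochberg, adjusted p at most 1.81e-13). The change differed between the last windows by -2.67 ± 0.27 (adjusted p = 1.78e-08, edgeR, Benjamini-Hochberg), where 66.3% of all rows were called. Within mislocalized embryos His2B fell by 2.08 ± 0.25 over that interval, while it rose in WT. His4 had 3.99 to 12.01 counts in each WT library and 0 in each mislocalized library. That is at least 4.77, 7.26 and 3.59-fold lower in the 3 windows, with bounds that cover counting error only.

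Markers moved with these values too. In IntS9 mislocalization the early zygotic sums were 260.1 to 269 CPM against 593 to 611 CPM in WT at 0 to 0.5 h, 279 to 283 against 728 to 748 CPM at 1 to 1.5 h and 333 to 363 against 7563 to 7633 CPM at 2.5 to 3 h. Of the 8 early zygotic genes, 3 and 4, 2 and 3, and 4 and 4 were at 0 in the mislocalized libraries of the 3 windows, and none in WT. The maternal sums were 4760.4 to 4777 against 4637 to 4674, 4668 to 4930.2 against 4631 to 4862 and 3901 to 4436 against 534 to 535 CPM. The 6 larval markers summed to 56.3 to 60.7 CPM in WT at 0 to 0.5 h, with none at 0, and to 17.4 to 18.9 CPM in mislocalized embryos. At the later windows they summed to 0 to 0.3398 CPM in WT and 2.47 to 6.803 CPM in mislocalized embryos. The sums over 8 genes of older embryos, WT against mislocalized, were 98.9 and 92.9 against 53.2 and 54.8 CPM at 0 to 0.5 h. They were 61.2 and 68.9 against 66.6 and 50.8 CPM at 1 to 1.5 h and 244 and 232 against 2.54 and 3.51 CPM at 2.5 to 3 h. The part of these markers in the histone values was not tested.

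The IntS11 and IntS9 mislocalizations were compared through their own controls. At 1 to 1.5 h the fall of His1 was smaller with IntS11 by 3.96 ± 0.42 log2 units (adjusted p = 1.6e-07). Without mislocalized IntS9 replicate 2 it was 4.82 and without replicate 1 of that group 3.67, called in both fits. The His2B difference in that window was 0.58 ± 0.27 and did not pass (adjusted p = 0.104), although it did without a filter, with a replicate block, with only the groups compared and with DESeq2. At 2.5 to 3 h the fall of His2B was smaller with IntS11 by 3.71 ± 0.35 (adjusted p = 4.11e-08, edgeR on both experiments together, Benjamini-Hochberg). In these joint fits 37.3% and 32.6% of all rows were called.

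In the IntS11 knockdown, His1 fell in each window. At 0 to 0.5 h it was 61.3 and 51.3 CPM in WT and 2.48 and 2.300 CPM in KD embryos. WT and KD embryos held, at 1 to 1.5 h, 58.8 and 49.8 against 1.296 and 0.991 CPM, and at 2.5 to 3 h 59.6 and 57.9 against 3.93 and 3.41 CPM. Every KD library lay below every WT library of its window. The log2 changes were -4.55 ± 0.20, -5.54 ± 0.21 and -3.99 ± 0.18 (edgeR, Benjamini-Hochberg, adjusted p at most 5.49e-13). In the deposited TPM the fall was larger, with log2 ratios of -6.62, -7.49 and -5.31. Of all rows, 69%, 72.7% and 75.6% were called. Beside the larval markers above, the maternal sums were 2525 to 2793 CPM in KD against 4311 to 4352 CPM in WT, 2325 to 2470.0 against 4242 to 4261 and 2003 to 2237 against 797 to 811 CPM in the 3 windows. Early zygotic sums were 133 to 143 against 324 to 342, 336 to 341 against 538 to 551 and 520.3 to 571 against 7430.2 to 7440.0 CPM. The sums over 8 genes of older embryos, KD against WT, were 40.7 and 32.9 against 84.9 and 89.2 CPM at 0 to 0.5 h. They were 170 and 164 against 52.4 and 49.8 CPM at 1 to 1.5 h and 67.0 and 74.9 against 1463 and 1443 CPM at 2.5 to 3 h. The part of stage was not tested.

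The His2B level in the same embryos was 51.7 and 50.6 CPM in WT and 92.6 and 86.6 CPM in KD at 0 to 0.5 h. The values at 1 to 1.5 h were 52.4 and 49.8 against 49.5 and 57.6 CPM, and at 2.5 to 3 h 64.2 and 64.4 against 27.1 and 38.1 CPM. On this scale KD embryos were higher in the first window, overlapped WT in the second and were lower in the third. The log2 changes were 0.81 ± 0.145 (adjusted p = 5.67e-05), 0.065 ± 0.15 (adjusted p = 0.703) and -0.99 ± 0.15 (adjusted p = 7.01e-06, edgeR, Benjamini-Hochberg), but the direction in the first 2 windows depended on the scaling. With total counts in place of the scaled library size they were 0.18, not called, and -0.39, called. In the deposited TPM all 3 were lower in KD, with log2 ratios of -1.24, -1.80 and -2.28. Scaling factors were 0.716 to 0.998 in KD and 1.15 to 1.200 in WT libraries. His4 at 0 to 0.5 h was 1.11 and 0.548 CPM in KD and 0 and 0.364 CPM in WT. In the later windows it was 0.0926 and 0.297 against 0.322 and 0.341 CPM, and 0.548 and 0.330 against 1.32 and 0.810 CPM. These His4 values rest on few counts.

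The balance of the types within a library needs no scaling between libraries. The ratio of His2B to His1 TPM was 1.75 to 2.06 in WT and 75.7 to 82.1 in KD embryos at 0 to 0.5 h, and 2.24 to 2.32 against 15.1 to 24.4 at 2.5 to 3 h. His1:CG31617 and His1:CG33813 held overlapping shares of His1 counts, 25.4% to 29.9% in WT and 25.8% to 31.00% in KD. The larger set with His1:CG33837 overlapped too, at 43.2% to 50.9% in WT and 39.0% to 60.3% in KD. Of the 14 copy rows tested, 13, 13 and 14 were lower in the 3 windows, where 29.6%, 31% and 36% of all rows were. Here too most are His1 rows in sets with identical values, and the His1 sum of a KD library was 10.03 to 42.98 counts. They passed the count filter mainly through WT libraries, so the counts of rows largely repeat the His1 sum and add no separate support.

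Mislocalization and knockdown of IntS11 were also compared through their controls. At 1 to 1.5 h the difference, mislocalization minus knockdown, was 1.48 ± 0.31 for His1 (adjusted p = 0.000157) and -2.29 ± 0.24 for His2B (adjusted p = 4.3e-08). At 2.5 to 3 h it was 0.94 ± 0.22 (adjusted p = 0.000547) and -0.78 ± 0.24 (adjusted p = 0.00799, edgeR, Benjamini-Hochberg). Of all rows 56.3% and 60.5% were called. Without KD replicate 2 of 2.5 to 3 h the His2B value was -0.60 and not called. In TPM the His2B log2 ratios at 1 to 1.5 h were -2.20 with mislocalization and -1.80 with knockdown. For 2.5 to 3 h they were -1.70 and -2.28, so the TPM difference had the opposite sign to the fitted one in that window. With only the groups compared the His1 value of that window was 0.56 and not called.

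**Figure D3:**
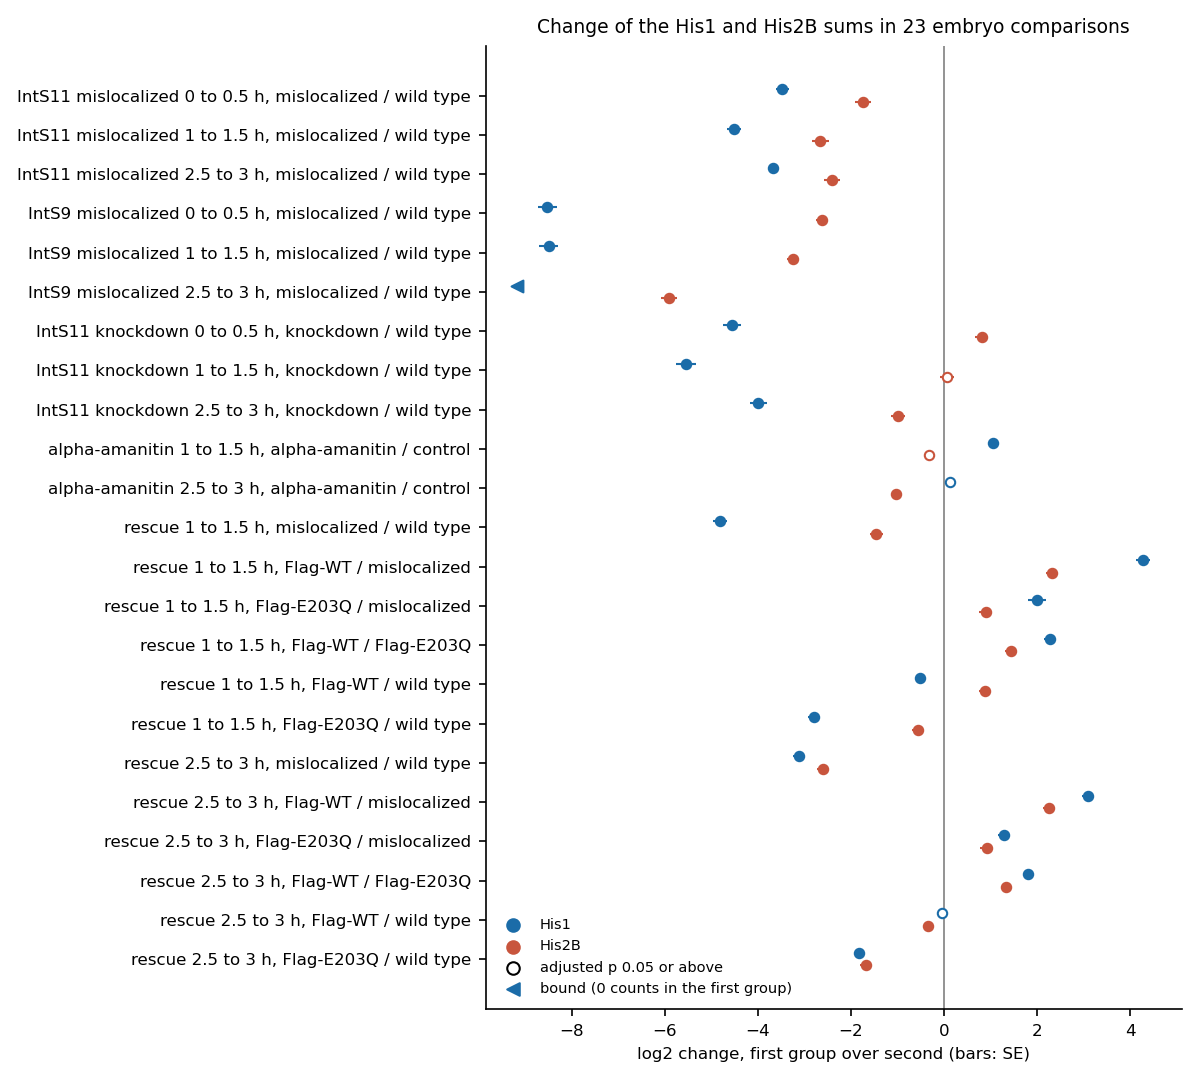
Fitted log2 change of the His1 (blue) and His2B (red) sums in the embryo comparisons, first group over second; bars are SE, open points did not pass an adjusted p of 0.05, and the triangle is a bound where the first group had 0 counts. In mislocalized and knockdown embryos against WT, His1 changed by -3.12 or more negative values, and with alpha-amanitin by 1.06 and 0.13.

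His1 was not lower in embryos given alpha-amanitin. At 1 to 1.5 h it was 16.3 and 14.4 CPM in controls and 33.7 and 30.6 CPM in treated embryos, with no overlap. It rose by 1.06 ± 0.099 on the log2 scale (adjusted p = 4.66e-06, edgeR, Benjamini-Hochberg), where 33.4% of all rows were called. Controls held at 2.5 to 3 h 30.03 and 33.7 CPM and treated embryos 33.97 and 35.5 CPM. The change of 0.13 ± 0.094 did not pass (adjusted p = 0.204, edgeR, Benjamini-Hochberg). It was called with total counts, and the TPM log2 ratio was 0.52. In TPM, His1 was 15.9 to 29.0 in these controls and at least 30.7 in controls of the other embryo experiments. Treated embryos averaged 33.2 and 33.7 TPM in the 2 windows. The part of these low controls in the changes was not tested.

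His2B was 33.7 and 40.3 CPM in controls and 29.6 and 29.9 CPM in treated embryos at 1 to 1.5 h, a change of -0.31 ± 0.12 that missed the threshold (adjusted p = 0.069). It passed with total counts, at -0.34, without a filter, at -0.31, with only the groups compared, at -0.33, and without control replicate 1, at -0.44; without control replicate 2 it was -0.18. At 2.5 to 3 h it was 79.9 and 61.3 against 34.8 and 35.1 CPM, a change of -1.02 ± 0.12 (adjusted p = 4.2e-06, edgeR, Benjamini-Hochberg), where 89.8% of all rows were called. Between these windows treated embryos changed by 0.11 ± 0.091 in His1 and 0.23 ± 0.12 in His2B, neither passing (adjusted p = 0.653 and 0.401), with 2.87% of all rows called. The effect of the drug differed between windows by -0.93 ± 0.14 for His1 and -0.71 ± 0.17 for His2B, both called, as were 72.7% of all rows. At 2.5 to 3 h the maternal markers summed to 5254 to 5342 CPM in treated embryos and 893 to 961 CPM in controls, and the early zygotic ones to 291 to 296 and 10186 to 10691 CPM. At 1 to 1.5 h the maternal sums were 5380.3 to 5505 and 5303 to 5561 CPM and the early zygotic sums 269 to 275 and 254 to 263 CPM. In that window 4 and 2 of the 8 early zygotic genes were at 0 in the treated libraries and none in the control libraries. At 2.5 to 3 h none was at 0 in either group. A sum over 8 genes of older embryos was 0.109 and 0.163 CPM in treated embryos and 11.3 and 13.3 CPM in controls at 1 to 1.5 h. The part of stage in these values was not tested.

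In the rescue experiment His1 was higher with Flag-tagged IntS11 WT than with E203Q, and higher with E203Q than in mislocalized embryos. At 1 to 1.5 h it was 37.6 and 46.7 CPM in WT, 1.28 and 1.72 CPM in mislocalized embryos, 29.1 and 29.8 CPM with Flag IntS11 WT and 5.68 and 6.44 CPM with E203Q. By 2.5 to 3 h it was 42.8 and 42.5, 5.18 and 4.62, 42.8 and 40.5 and 12.2 and 11.7 CPM in the same order. The 4 groups were separate in the first of these windows, and in the second WT and Flag IntS11 WT overlapped. Against mislocalized embryos His1 was higher by 4.28 ± 0.15 and 3.09 ± 0.12 log2 units with Flag IntS11 WT and by 2.01 ± 0.20 and 1.29 ± 0.13 with E203Q (edgeR, Benjamini-Hochberg, adjusted p at most 1.49e-08). Of all rows 24% and 78.2% were called for the first transgene and 43.5% and 53.4% for the second.

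His2B at 1 to 1.5 h was 33.2 and 35.6 CPM in WT, 11.8 and 13.4 CPM in mislocalized embryos, 55.04 and 71.96 CPM with Flag IntS11 WT and 21.3 and 25.6 CPM with E203Q. By 2.5 to 3 h His2B was 73.7 and 83.8, 12.1 and 13.9, 60.5 and 63.4 and 25.2 and 23.7 CPM in the same order. Flag IntS11 WT thus stood above WT in the first of these windows and below it in the second. The transgenes differed, WT over E203Q, by 2.28 ± 0.12 and 1.80 ± 0.10 in His1 and by 1.43 ± 0.12 and 1.34 ± 0.12 in His2B (edgeR, Benjamini-Hochberg, adjusted p at most 5.79e-08), where 45.6% and 75% of all rows were called.

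Against WT, Flag IntS11 WT differed by -0.52 ± 0.095 in His1 and 0.88 ± 0.12 in His2B at 1 to 1.5 h (adjusted p = 0.00011 and 1.4e-05). For 2.5 to 3 h the values were -0.032 ± 0.093 and -0.35 ± 0.11 (adjusted p = 0.804 and 0.0139, edgeR, Benjamini-Hochberg). The last His2B value was -0.24, -0.30 and -0.365, and not called, without WT replicate 2 or without Flag IntS11 WT replicate 1 or 2. With E203Q the differences from WT were -2.80 ± 0.12 and -1.83 ± 0.10 in His1 and -0.55 ± 0.13 and -1.685 ± 0.12 in His2B, all called. Mislocalized embryos differed from WT by -4.80 ± 0.15 and -3.12 ± 0.12 in His1 and -1.45 ± 0.14 and -2.60 ± 0.12 in His2B. The rows called were 43.3% and 44.5% for Flag IntS11 WT, 49.3% and 77.1% for E203Q and 53.1% and 81.8% for mislocalized embryos. These comparisons share libraries.

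His1:CG31617 and His1:CG33813 held 28.8% to 30.8% of His1 counts in WT, 16.6% to 20.01% in mislocalized embryos, 21.4% to 29.1% with E203Q and 25.02% to 25.6% with Flag IntS11 WT. The set with His1:CG33855 overlapped here, at 8.61% to 21.8% in WT and 21.4% to 32.8% in mislocalized embryos. His1:CG33801 did not, at 0.785% to 1.56% and 2.85% to 4.21%. Summed maternal markers at 2.5 to 3 h stood at 743 to 779.6 CPM in WT, 3831 to 3928 CPM in mislocalized embryos, 2895 to 3022 CPM with E203Q and 684 to 689 CPM with Flag IntS11 WT. Those sums at 1 to 1.5 h stood at 4629.9 to 5343 CPM over the 4 groups. Early zygotic sums at 1 to 1.5 h were 1326 to 1348 CPM in WT, 427 to 433 CPM in mislocalized embryos, 1257 to 1262 CPM with E203Q and 1191 to 1238 CPM with Flag IntS11 WT, and at 2.5 to 3 h 11508 to 11739 CPM in WT, 1507 to 1542 CPM in mislocalized embryos, 4072 to 4200.0 CPM with E203Q and 11846 to 11959.9 CPM with Flag IntS11 WT. At 2.5 to 3 h, 5 yolk protein and eggshell genes summed to 36.6 and 37.7 CPM in mislocalized embryos and 1.28 and 0.681 CPM in WT. Their sums were 3.89 and 3.42 CPM with E203Q and 2.01 and 1.39 CPM with Flag IntS11 WT. The part of stage or of other tissue in the rescue values was not tested.

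**Figure D4:**
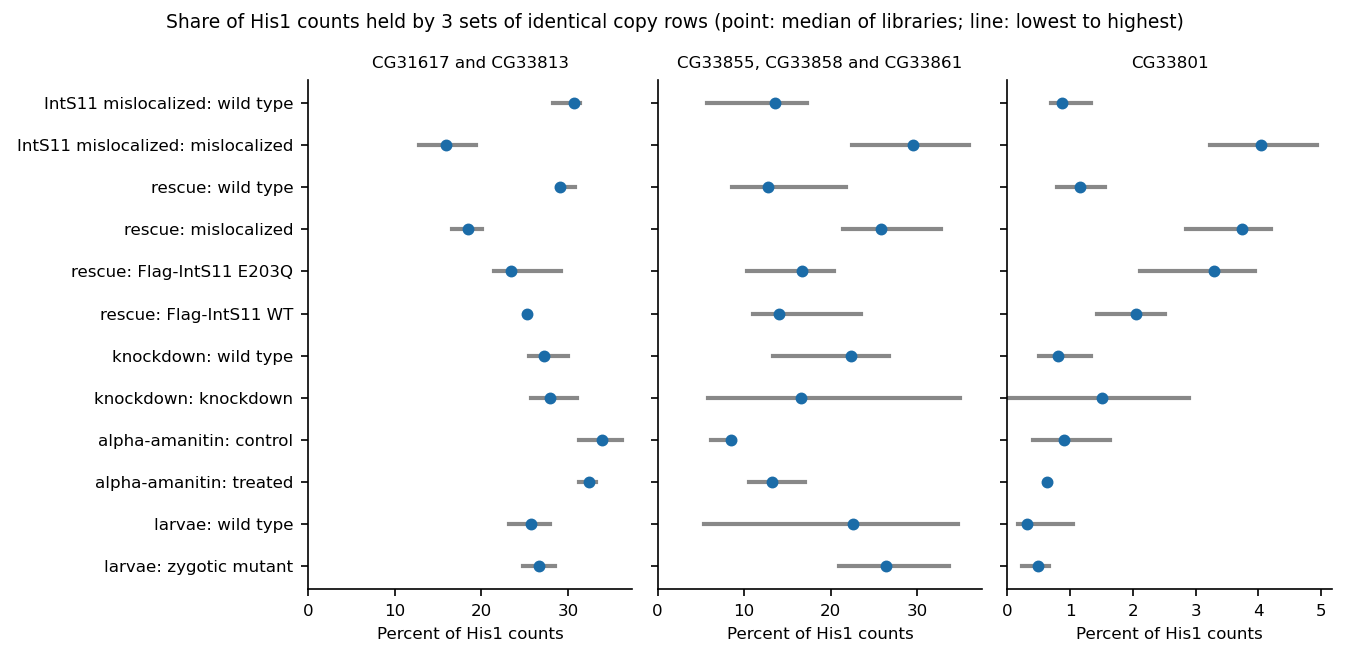
Percent of His1 counts held by some of the sets of rows with identical values, by arm. Points are medians over the libraries of an arm and lines run from the lowest to the highest library. The largest set, with His1:CG33837, is not drawn. The share of CG31617 and CG33813 is 12.8% to 19.4% with mislocalized IntS11 and 28.2% to 31.4% in its WT, while KD and WT embryos overlap.

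In WT and mutant larvae both types fell between 24 and 48 h. In WT larvae His1 was 21.7 and 20.7 CPM at 24 h, 13.5 and 14.1 CPM at 48 h and 12.3 and 13.5 CPM at 72 h. His2B was 50.6 and 45.6, 21.6 and 25.1, and 10.8 and 12.1 CPM at the same ages. His2B fell by 1.045 ± 0.10 and 1.025 ± 0.11 on the log2 scale in the successive intervals, and His1 fell by 0.62 ± 0.10 and then changed by -0.095 ± 0.10, which did not pass (adjusted p = 0.467, edgeR, Benjamini-Hochberg). In mutants His1 fell by 1.02 ± 0.13 and 0.64 ± 0.15 and His2B by 0.61 ± 0.13 and 0.82 ± 0.14. The rows called were 69.1% and 51.3% in WT and 67.2% and 55.2% in mutants. In deposited TPM, where changes with age were not tested, mean His1 in WT was 9.16 at 48 h and 5.4 at 72 h.

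Mutant larvae held 22.8 and 19.96 CPM of His1 at 24 h, 11.2 and 9.96 CPM at 48 h and 6.63 and 7.06 CPM at 72 h. Their His2B level was 32.9 and 26.5, 19.7 and 20.1, and 11.9 and 10.6 CPM. Mutants overlapped WT in His1 at 24 h and in His2B at 72 h, and lay below WT otherwise. His2B fell by 0.67 ± 0.098 at 24 h (adjusted p = 0.00011) and His1 by 0.92 ± 0.11 at 72 h (adjusted p = 5.92e-07). His1 at 48 h passed narrowly, at -0.37 ± 0.14 (adjusted p = 0.0478), and of the other settings with a test only DESeq2-type size factors in edgeR kept that call. The remaining changes did not pass, at 0.026 ± 0.097 for His1 at 24 h and -0.23 ± 0.13 and -0.026 ± 0.12 for His2B at 48 and 72 h, with adjusted p of 0.96, 0.21 and 0.872 (edgeR, Benjamini-Hochberg). Of all rows 9.96%, 29.8% and 57.2% were called at the 3 ages.

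Markers of stage and of other tissue moved with age and with the mutant in these larvae. The 6 larval markers, WT against mutant, summed to 283 to 317 against 198 to 209 CPM at 24 h, 2074 to 2100.4 against 1134 to 1222 CPM at 48 h and 2128 to 2264 against 1309.8 to 1369 CPM at 72 h. Of 5 yolk protein and eggshell genes the sums were 950.1 to 992 against 671 to 744 CPM at 24 h, 9.901 to 11.02 against 419 to 549.7 CPM at 48 h and 0.972 to 1.14 against 1.76 to 2.499 CPM at 72 h. The 6 maternal germline transcripts summed to 300.4 to 314 against 252 to 281 CPM at 24 h, 118 to 127 against 163 to 183 CPM at 48 h and 131 to 132 against 92.2 to 94.8 CPM at 72 h. The part of these markers in the larval histone values was not tested.

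**Figure D5:**
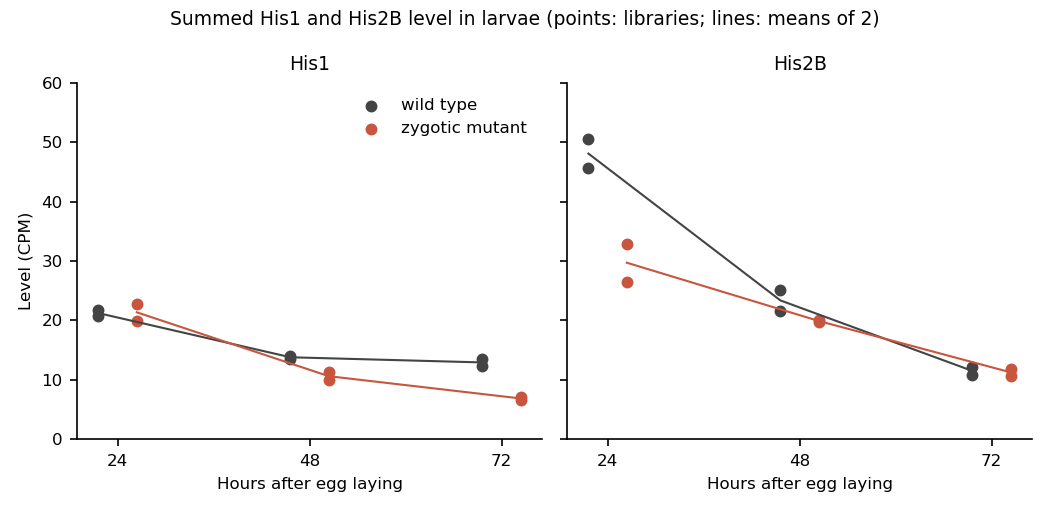
Summed His1 (left) and His2B (right) level in CPM against hours after egg laying; points are libraries and lines join the means of 2 in WT (grey) and zygotic mutant (red). The mutant lies below WT in His2B at 24 h, at 32.9 and 26.5 CPM, and in His1 at 72 h, at 6.63 and 7.06 CPM.

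Histone variants are encoded outside the array and, unlike its genes, give polyadenylated mRNA. Values of the variants and of the gene lists after them come from the TMM-scaled fit (edgeR, Benjamini-Hochberg) and were not recomputed with other scalings, so their directions in the knockdown hold for that scaling. With mislocalized IntS11, 1 of 6 was higher and 1 lower at 0 to 0.5 h, with a median log2 change of 0.040 beside 0 for all rows, of which 31.6% were called. In the last window 5 were lower and 1 was higher, with a median of -1.12 beside -0.38 for all rows, 83.3% of them called. With mislocalized IntS9 5 were lower and 1 higher at 2.5 to 3 h, with a median of -0.98 beside -0.015 and 83.4% of all rows called.

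BigH1 is the maternal linker histone of the early fly embryo. Its level at 2.5 to 3 h was 28.05 to 29.9 CPM in WT and 215 to 228 CPM with mislocalized IntS11, and 26.7 to 27.5 against 217 to 259.9 CPM with mislocalized IntS9. It was 36.5 to 40.1 against 233 to 249.9 CPM in the knockdown and 34.96 to 36.4 against 311 to 314 CPM with amanitin. It rose in all 4, by 2.94 ± 0.087, 3.14 ± 0.078, 2.66 ± 0.11 and 3.13 ± 0.055 log2 units. With Flag IntS11 WT BigH1 was 0.087 ± 0.084 from WT, which did not pass, and with E203Q it was higher by 2.14 ± 0.073. At that window BigH1 was higher and His1 lower in both mislocalizations and the knockdown. With amanitin BigH1 was higher and the change of His1 did not pass, although it was called with total counts and its TPM log2 ratio was 0.52.

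The H3.3 genes His3.3A and His3.3B, which supply replication-independent H3, fell at 2.5 to 3 h by 1.45 ± 0.084 and 0.93 ± 0.099 with mislocalized IntS11 and by 1.27 ± 0.048 and 0.59 ± 0.054 with amanitin. In the knockdown His3.3A was higher by 0.55 ± 0.082 and His3.3B fell by 0.74 ± 0.079. His2Av, the H2A variant, fell by 0.57 ± 0.095 and 0.42 ± 0.052 with mislocalized IntS11 and IntS9, by 0.73 ± 0.12 in the knockdown and by 1.13 ± 0.082 with amanitin.

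Of 15 genes for histone mRNA 3′ ends and the histone locus body, 14 were tested, since the U7 snRNA had no counts. With mislocalized IntS11 at 0 to 0.5 h 1 was higher and 2 lower, and at 2.5 to 3 h 2 were higher and 11 lower, with a median of -0.52. Of all rows 31.6% and 83.3% were called there, with medians of 0 and -0.38. With mislocalized IntS9 2 were higher and 4 lower in the first window, and 3 higher and 9 lower in the last, where 52.5% and 83.4% of all rows were called and the list medians were -0.037 and -0.27 beside -0.026 and -0.015. Slbp, the stem-loop binding protein, was -0.22 ± 0.087 and 0.0084 ± 0.062 from WT in the first window with mislocalized IntS11 and IntS9, neither called. In the last window Slbp stood at 359 to 384 CPM in WT and 25.8 to 31.3 CPM with mislocalized IntS11, and fell by 3.70 ± 0.099 there and by 3.79 ± 0.078 with mislocalized IntS9. It fell by 0.69 ± 0.11 in the knockdown and by 0.53 ± 0.060 with amanitin. With Flag IntS11 WT Slbp was 0.012 ± 0.054 from WT, not called.

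Other members of that list moved in different directions. The locus body scaffold mxc was higher at 2.5 to 3 h by 0.72 ± 0.125 with mislocalized IntS11, 0.67 ± 0.058 with mislocalized IntS9 and 2.11 ± 0.060 with amanitin. The locus body gene mute fell by 1.05 ± 0.10 and 1.19 ± 0.062 with mislocalized IntS11 and IntS9 and rose by 1.06 ± 0.060 with amanitin. Lsm11, a protein of the U7 particle, was higher by 1.14 ± 0.16 with mislocalized IntS11 and by 1.10 ± 0.23 in the knockdown. FLASH, which recruits the histone cleavage complex and was named after its values were seen, fell in the knockdown by 2.32 ± 0.19, 2.42 ± 0.18 and 1.63 ± 0.175 in the 3 windows. The list as a whole was evenly split there. Of the 14 tested, 6 were higher and 6 lower in each of the first 2 windows and 4 and 4 in the last. The list medians were -0.20, -0.047 and 0.20 beside 0.25, 0.26 and 0.073 for all rows, of which 69%, 72.7% and 75.6% were called.

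Of 8 regulators of histone transcription, 1 was higher and 2 lower at 0 to 0.5 h with mislocalized IntS11, and 2 higher and 5 lower in the knockdown, where 31.6% and 69% of all rows were called. The list medians were -0.031 and -0.98 beside 0 and 0.25 for all rows. At that window the elongation factor Spt6 changed by -0.31 ± 0.078 with mislocalized IntS11 and 0.68 ± 0.074 in the knockdown, both called. CycE, the cyclin of S phase entry, changed by -0.015 ± 0.081 and -0.15 ± 0.077, neither called, and Trf2, a TBP-related factor, by -0.017 ± 0.099, not called, and -1.07 ± 0.18, called. Of 10 S phase genes 6 were higher and 4 lower with mislocalized IntS11 at 2.5 to 3 h, where 83.3% of all rows were called; the list median was 0.24 beside -0.38. The large ribonucleotide reductase subunit RnrL rose by 1.33 ± 0.077, the small subunit RnrS fell by 2.27 ± 0.090 and the licensing factor dup rose by 0.20 ± 0.073. With amanitin 8 of the 10 were higher and 1 lower, with a median of 1.25 beside -0.23 for all rows, 89.8% of them called.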

How the data were processed

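Gene tables of 72 libraries were used. The authors deposited RSEM expected counts and TPM per gene; per the submitters' processing notes, the tools included Trimmomatic 0.39, STAR 2.7.10a, RSEM 1.3.1 and DESeq2 1.40.2, and the build was dm6. Per the labels' protocols, RNA was depleted of rRNA and libraries were strand-specific; use of strand in counting and treatment of shared reads are not given in the sources used here. Here the deposited expected counts were rounded, copies summed per histone type, and 1 quasi-likelihood model with TMM scaling fitted per experiment with a mean per group, after filterByExpr with a minimum count of 10 (edgeR 4.0.16, limma 3.58.1, R 4.3.3; DESeq2 1.42.0 as an alternative). Benjamini-Hochberg adjustment ran over all rows, with a threshold of 0.05. Differences between experiments came from joint fits. The steps were tested on simulated data. Levels in CPM use the scaled library size. Members, gene lists and tests were chosen with earlier results of these data known. Named copies are those with the highest mean count per type; IntS11 checks the labels. Values are given for Slbp, mxc, mute, Lsm11, U7, BigH1, His2Av, His3.3A and His3.3B, and for the 3 regulators of histone transcription and the 3 S phase genes with the highest mean level. No sequences were printed.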

Additional observations from a re-analysis of the deposited data

Results flagged for a closer look

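The values in this section are differences between log2 changes, with their SE, that passed an adjusted p of 0.05 in the test of the difference itself (edgeR, Benjamini-Hochberg over all rows); their causes were not tested. For IntS11 mislocalization, effect at 1 to 1.5 h minus 0 to 0.5 h, the difference was -1.03 ± 0.23 for His1 and -0.92 ± 0.25 for His2B and -0.85 ± 0.21 for the sum of all types, where 15.1% of all rows were called. The His1 value was -0.86, not called, without mislocalized replicate 1 of 1 to 1.5 h. The His2B value was -1.10 to -0.53 without 1 library, with the call lost in several of these fits. For the sum it was -1.005 to -0.51 without 1 library, with the call lost in several of these fits. For IntS11 mislocalization, effect at 2.5 to 3 h minus 1 to 1.5 h, the difference was 0.84 ± 0.21 for His1, where 60.9% of all rows were called. For IntS9 mislocalization, effect at 1 to 1.5 h minus 0 to 0.5 h, the difference was -0.62 ± 0.19 for His2B and -0.51 ± 0.16 for the sum of all types, where 14% of all rows were called. The His2B value was -0.60 with DESeq2, not called, and -0.78 to -0.44 without 1 library, with the call lost in several of these fits. For the sum it was 0.022 with the leading copy left out, the opposite sign, and -0.49 with DESeq2, not called, and -0.65 to -0.34 without 1 library, with the call lost in several of these fits. For IntS9 mislocalization, effect at 2.5 to 3 h minus 1 to 1.5 h, the difference was -2.67 ± 0.27 for His2B and -2.66 ± 0.24 for the sum of all types, where 66.3% of all rows were called. For amanitin, effect at 2.5 to 3 h minus 1 to 1.5 h, the difference was -0.93 ± 0.14 for His1 and -0.71 ± 0.17 for His2B and -0.80 ± 0.11 for the sum of all types, where 72.7% of all rows were called. For rescue Flag WT over WT, effect at 2.5 to 3 h minus 1 to 1.5 h, the difference was -0.49 ± 0.13 for the sum of all types, where 23.4% of all rows were called. This sum took values of 0.48 with the leading copy left out, the opposite sign, and -0.37, not called, without WT replicate 1 of 1 to 1.5 h. For rescue Flag E203Q over WT, effect at 2.5 to 3 h minus 1 to 1.5 h, the difference was -0.34 ± 0.14 for the sum of all types, where 63.1% of all rows were called. This sum took values of -0.30 with total counts, not called, and 1.02 with the leading copy left out, the opposite sign, and -0.46 to -0.20 without 1 library, with the call lost in several of these fits. For knockdown, effect at 1 to 1.5 h minus 0 to 0.5 h, the difference was -0.74 ± 0.21 for His2B and -0.74 ± 0.18 for the sum of all types, where 4.94% of all rows were called. The His2B value was -0.73 with DESeq2-type size factors, not called, and -0.57 with total counts, not called, and -0.73 with DESeq2, not called, and -0.84 to -0.63 without 1 library, with the call lost in several of these fits. For the sum it was -0.56 with total counts, not called, and -1.09 with the leading copy left out, not called, and -0.83 to -0.63 without 1 library, with the call lost in several of these fits. For knockdown, effect at 2.5 to 3 h minus 1 to 1.5 h, the difference was 1.555 ± 0.32 for His1 and -1.05 ± 0.21 for His2B and -0.81 ± 0.18 for the sum of all types, where 56.8% of all rows were called. For the sum it was 1.42 with the leading copy left out, the opposite sign.

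Taking IntS11 mislocalization minus IntS9 mislocalization at 1 to 1.5 h, the difference was 3.96 ± 0.42 for His1 and 1.08 ± 0.22 for the sum of all types, with 37.3% of all rows called. The His1 value was 4.82 without mislocalized replicate 2 of 1 to 1.5 h, still called. Taking IntS11 mislocalization minus IntS9 mislocalization at 2.5 to 3 h, the difference was 3.71 ± 0.35 for His2B and 4.24 ± 0.29 for the sum of all types, with 32.6% of all rows called. Taking IntS11 mislocalization minus knockdown at 1 to 1.5 h, the difference was 1.48 ± 0.31 for His1 and -2.29 ± 0.24 for His2B and -1.69 ± 0.20 for the sum of all types, with 56.3% of all rows called. For the sum it was 1.42 with the leading copy left out, the opposite sign. Taking IntS11 mislocalization minus knockdown at 2.5 to 3 h, the difference was 0.94 ± 0.22 for His1 and -0.78 ± 0.24 for His2B, with 60.5% of all rows called. The His1 value was 0.56 with only the groups compared, not called. The His2B value was -0.60, not called, without KD replicate 2 of 2.5 to 3 h and of the opposite sign in TPM, where the log2 ratios were -1.70 with mislocalization and -2.28 with knockdown. Taking IntS11 mislocalization minus amanitin at 1 to 1.5 h, the difference was -3.34 ± 0.19 for the sum of all types, with 38.8% of all rows called. Taking IntS11 mislocalization minus amanitin at 2.5 to 3 h, the difference was -2.38 ± 0.18 for the sum of all types, with 69.9% of all rows called. Taking IntS9 mislocalization minus amanitin at 1 to 1.5 h, the difference was -4.47 ± 0.14 for the sum of all types, with 40.7% of all rows called. Taking IntS9 mislocalization minus amanitin at 2.5 to 3 h, the difference was -6.45 ± 0.18 for the sum of all types, with 69.7% of all rows called. Taking knockdown minus amanitin at 1 to 1.5 h, the difference was -1.05 ± 0.16 for the sum of all types, with 56.9% of all rows called. Taking knockdown minus amanitin at 2.5 to 3 h, the difference was -1.09 ± 0.16 for the sum of all types, with 65.5% of all rows called. The experiments were separate and had their own controls, so a difference between experiments and a difference between conditions cannot be told apart.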

How the results depend on the processing

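The changes and differences of His1, His2B and the sum, and the counts of copies called, were recomputed under other settings; the gene lists, shares, ratios and His4 were not. The changes and differences kept direction and side of the adjusted p threshold in 154 of 164 cases with DESeq2-type size factors. They did so in 146 of 164 with total counts, 152 of 164 without a filter and 149 of 164 with DESeq2. Those were 144 of 163 with only the groups compared, 85 of 105 without the leading copy and 719 of 832 without 1 library. With a replicate block 158 of 164 did. Of the TPM ratios 40 of 51 kept the sign and stayed near the fitted value. The counts of copies called, recomputed without a filter and with total counts, are not in these numbers and changed in some comparisons. Correlations between same-numbered libraries ran from -0.20 to 0.18, so the numbers were not taken to pair the samples. In the IntS11 mislocalization experiment 6 of 15 correlations were above 0.1, against 1 of 28 in the rescue and 0 in the other experiments. In each group of the IntS11 mislocalization experiment His2B was higher in replicate 1. TPM ratios, and the values of each type for differences between windows and experiments, were added after seeing the data. His2B without His2B:CG33868 had too few counts for a fit. The cause of each change below was not tested. His1, larvae 24 h, reported at 0.026, took the opposite sign in 1 or more fits without 1 library, which ran from -0.092 to 0.095. The sum, larvae 24 h, reported at -0.42, took the opposite sign at 0.012 with the leading copy left out. His1, larvae 48 h, reported at -0.37, lost its call at -0.34 with total counts, -0.38 with no filter and the leading copy left out and DESeq2, -0.37 with a replicate block, -0.365 with only the groups compared, and lost its call in 1 or more fits without 1 library, which ran from -0.47 to -0.30. The sum, larvae 48 h, reported at -0.28, lost its call at -0.25 with total counts, -0.29 with a replicate block and DESeq2, -0.39 with the leading copy left out, -0.28 with only the groups compared, and lost its call in 1 or more fits without 1 library, which ran from -0.36 to -0.21. His2B, larvae 72 h, reported at -0.026, took the opposite sign at 0.0042 with only the groups compared, 0.25 with deposited TPM, and took the opposite sign in 1 or more fits without 1 library, which ran from -0.11 to 0.057. The sum, larvae, effect at 48 h minus 24 h, reported at 0.14, took the opposite sign at -0.40 with the leading copy left out. The sum, larvae, effect at 72 h minus 48 h, reported at -0.15, gained a call at -0.51 with the leading copy left out. His2B, IntS11 mislocalization, mislocalized, 1 to 1.5 h over 0 to 0.5 h, reported at -0.21, took the opposite sign in 1 or more fits without 1 library, which ran from -0.44 to 0.13. The sum, IntS11 mislocalization, effect at 1 to 1.5 h minus 0 to 0.5 h, reported at -0.85, lost its call in 1 or more fits without 1 library, which ran from -1.005 to -0.51. The sum, IntS11 mislocalization, effect at 2.5 to 3 h minus 1 to 1.5 h, reported at 0.29, gained a call at 0.59 with total counts, 0.58 with no filter, 0.30 with a replicate block, 0.77 with the leading copy left out, 0.47 with only the groups compared, and gained a call in 1 or more fits without 1 library, which ran from 0.16 to 0.69. His1, IntS9 mislocalization, mislocalized, 1 to 1.5 h over 0 to 0.5 h, reported at -0.040, took the opposite sign at 0.0037 with total counts, 0.0094 with no filter, and took the opposite sign in 1 or more fits without 1 library, which ran from -0.79 to 0.37. His1, IntS9 mislocalization, WT, 1 to 1.5 h over 0 to 0.5 h, reported at -0.066, took the opposite sign at 0.00084 with only the groups compared, and took the opposite sign in 1 or more fits without 1 library, which ran from -0.17 to 0.019. The sum, IntS9 mislocalization, effect at 1 to 1.5 h minus 0 to 0.5 h, reported at -0.51, took the opposite sign at 0.022 with the leading copy left out, and lost its call at -0.49 with DESeq2, and lost its call in 1 or more fits without 1 library, which ran from -0.65 to -0.34. His2B, amanitin 1 to 1.5 h, reported at -0.31, gained a call at -0.34 with total counts, -0.31 with no filter, -0.33 with only the groups compared, and gained a call in 1 or more fits without 1 library, which ran from -0.44 to -0.18. The sum, amanitin 1 to 1.5 h, reported at 0.24, lost its call in 1 or more fits without 1 library, which ran from 0.18 to 0.31. His1, amanitin 2.5 to 3 h, reported at 0.13, gained a call at 0.24 with total counts. The sum, amanitin 2.5 to 3 h, reported at -0.56, took the opposite sign at 0.11 with the leading copy left out. The sum, rescue 1 to 1.5 h, Flag WT over WT, reported at 0.26, lost its call at 0.16 with total counts, 0.19 with only the groups compared, 0.24 with DESeq2, and took the opposite sign at -0.48 with the leading copy left out, and lost its call in 1 or more fits without 1 library, which ran from 0.13 to 0.39. His1, rescue 2.5 to 3 h, Flag WT over WT, reported at -0.032, took the opposite sign at 0.0060 with no filter, 0.027 with deposited TPM, and took the opposite sign in 1 or more fits without 1 library, which ran from -0.059 to 0.025. His2B, rescue 2.5 to 3 h, Flag WT over WT, reported at -0.35, lost its call in 1 or more fits without 1 library, which ran from -0.42 to -0.24. The sum, rescue 2.5 to 3 h, Flag WT over WT, reported at -0.23, lost its call at -0.0012 with the leading copy left out, and lost its call in 1 or more fits without 1 library, which ran from -0.27 to -0.16. His2B, rescue, mislocalized, 2.5 to 3 h over 1 to 1.5 h, reported at 0.039, took the opposite sign in 1 or more fits without 1 library, which ran from -0.071 to 0.13. His1, rescue, WT, 2.5 to 3 h over 1 to 1.5 h, reported at 0.00998, took the opposite sign at -0.040 with no filter, and took the opposite sign in 1 or more fits without 1 library, which ran from -0.15 to 0.17. His2B, rescue, Flag WT, 2.5 to 3 h over 1 to 1.5 h, reported at -0.035, took the opposite sign at 0.097 with DESeq2-type size factors, 0.0052 with total counts, 0.063 with only the groups compared, 0.096 with DESeq2, and took the opposite sign in 1 or more fits without 1 library, which ran from -0.22 to 0.16. His2B, rescue, Flag E203Q, 2.5 to 3 h over 1 to 1.5 h, reported at 0.062, took the opposite sign in 1 or more fits without 1 library, which ran from -0.071 to 0.20. The sum, rescue mislocalized over WT, effect at 2.5 to 3 h minus 1 to 1.5 h, reported at -0.32, gained a call at -0.37 with DESeq2-type size factors and DESeq2, -0.29 with no filter, -0.32 with a replicate block, -0.315 with only the groups compared, and took the opposite sign at 1.61 with the leading copy left out, and gained a call in 1 or more fits without 1 library, which ran from -0.43 to -0.20. The sum, rescue Flag WT over mislocalized, effect at 2.5 to 3 h minus 1 to 1.5 h, reported at -0.18, gained a call at -1.13 with the leading copy left out. The sum, rescue Flag E203Q over mislocalized, effect at 2.5 to 3 h minus 1 to 1.5 h, reported at -0.026, took the opposite sign in 1 or more fits without 1 library, which ran from -0.14 to 0.10. The sum, rescue Flag WT over Flag E203Q, effect at 2.5 to 3 h minus 1 to 1.5 h, reported at -0.15, gained a call at -0.54 with the leading copy left out. The sum, rescue Flag WT over WT, effect at 2.5 to 3 h minus 1 to 1.5 h, reported at -0.49, took the opposite sign at 0.48 with the leading copy left out, and lost its call in 1 or more fits without 1 library, which ran from -0.61 to -0.34. The sum, rescue Flag E203Q over WT, effect at 2.5 to 3 h minus 1 to 1.5 h, reported at -0.34, lost its call at -0.30 with total counts, and took the opposite sign at 1.02 with the leading copy left out, and lost its call in 1 or more fits without 1 library, which ran from -0.46 to -0.20. His2B, knockdown 0 to 0.5 h, reported at 0.81, lost its call at 0.18 with total counts, and took the opposite sign at -1.24 with deposited TPM. The sum, knockdown 0 to 0.5 h, reported at -0.21, gained a call at -0.85 with total counts, -4.21 with the leading copy left out, -0.29 with only the groups compared. His2B, knockdown 1 to 1.5 h, reported at 0.065, took the opposite sign at -0.39 with total counts, -1.80 with deposited TPM, and took the opposite sign in 1 or more fits without 1 library, which ran from -0.053 to 0.16. His1, knockdown, WT, 1 to 1.5 h over 0 to 0.5 h, reported at -0.051, took the opposite sign at 0.0070 with total counts, and took the opposite sign in 1 or more fits without 1 library, which ran from -0.18 to 0.079. His2B, knockdown, WT, 1 to 1.5 h over 0 to 0.5 h, reported at -0.00047, took the opposite sign at 0.031 with DESeq2-type size factors and DESeq2, 0.058 with total counts, 0.047 with only the groups compared, and took the opposite sign in 1 or more fits without 1 library, which ran from -0.043 to 0.030. His1, knockdown, WT, 2.5 to 3 h over 1 to 1.5 h, reported at 0.11, took the opposite sign in 1 or more fits without 1 library, which ran from -0.013 to 0.23. The sum, knockdown, effect at 1 to 1.5 h minus 0 to 0.5 h, reported at -0.74, lost its call at -0.56 with total counts, -1.09 with the leading copy left out, and lost its call in 1 or more fits without 1 library, which ran from -0.83 to -0.63. The sum, knockdown, effect at 2.5 to 3 h minus 1 to 1.5 h, reported at -0.81, took the opposite sign at 1.42 with the leading copy left out. The sum, IntS11 mislocalization minus knockdown, 1 to 1.5 h, reported at -1.69, took the opposite sign at 1.42 with the leading copy left out. The sum, IntS11 mislocalization minus knockdown, 2.5 to 3 h, reported at -0.395, gained a call at -0.67 with DESeq2-type size factors and DESeq2, -0.46 with no filter, -0.79 with only the groups compared, and took the opposite sign at 0.95 with the leading copy left out, and gained a call in 1 or more fits without 1 library, which ran from -0.52 to -0.26. His2B, larvae 48 h, reported at -0.23, took the opposite sign at 0.033 with deposited TPM. His1, IntS11 mislocalization 2.5 to 3 h, reported at -3.67, stood at -2.98 with deposited TPM. His2B, IntS11 mislocalization 2.5 to 3 h, reported at -2.40, stood at -1.70 with deposited TPM. His1, knockdown 0 to 0.5 h, reported at -4.55, stood at -6.62 with deposited TPM. His1, knockdown 1 to 1.5 h, reported at -5.54, stood at -7.49 with deposited TPM. His1, knockdown 2.5 to 3 h, reported at -3.99, stood at -5.31 with deposited TPM. His2B, knockdown 2.5 to 3 h, reported at -0.99, stood at -2.28 with deposited TPM.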
